A study of Homo sapiens with 6 samples.

Results

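The mitochondrial ribosomal protein genes studied here are all protein-coding genes on chromosomes 1 to 22 and X of the GENCODE hg19 annotation whose symbols start with MRPL or MRPS. There were 78 of them among 20090 protein-coding genes, 49 with an MRPL symbol and 29 with an MRPS symbol. Grouped by where their products sit, 51 encode proteins of the large subunit and 26 proteins of the small subunit. MRPS18A and MRPS30 carry small-subunit symbols but belong to the large subunit. The remaining gene, MRPS36, encodes a component of the α-ketoglutarate dehydrogenase complex and not a ribosomal protein. Of the ribosomal proteins, 46 were grouped as having a bacterial counterpart and 31 as specific to mitochondria. MRPS18A and MRPS18B, although relatives of bacterial protein S18, were counted among the 31.

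Mitochondrial ribosomes translate the few messenger RNAs made from mitochondrial DNA, which encode core subunits of the respiratory chain and of ATP synthase. Their RNA is made inside the organelle, while every one of their proteins is encoded in the nucleus, transcribed by RNA polymerase II (Pol II), made in the cytosol and imported. Nuclear genes for mitochondrial proteins often have promoters with sites for NRF1, for ETS factors such as GABPA and for YY1.

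The data are Pol II ChIP-seq peak lists from SK-Hep1 cells, an established human line from a liver adenocarcinoma. Cells with an siRNA against malic enzyme 2 (ME2) and added α-ketoglutarate (siME2+αKG), cells with the same siRNA alone (siME2) and cells with a control siRNA (siCtrl) were compared. ME2 is the mitochondrial NAD-dependent enzyme that converts malate to pyruvate, and α-ketoglutarate is an intermediate of the citric acid cycle and a substrate of many dioxygenases. A single ChIP library and a single input stood for each condition, so nothing below has a replicate check, and every comparison is one between libraries. The labels give no siRNA sequence, αKG dose or duration, and no measure of how far ME2 was depleted was used here.

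After duplicate removal, the ChIP libraries held 12955596 tags for siME2+αKG, 10445326 for siME2 and 13006504 for siCtrl, and in the same order 28949, 29172 and 31690 peaks were listed on the chromosomes used. The siME2 library was the shallowest. Estimated fragment lengths were 221 bp for siME2+αKG, 201 bp for siME2 and 211 bp for siCtrl. Against the liver origin of the line, none of 10 hepatocyte marker genes, among them ALB and HNF4A, had a promoter peak in any list. None of 5 leukocyte markers had one. Of 9 endothelial or mesenchymal markers, 6 did in siME2+αKG, 5 in siME2 and 6 in siCtrl. These were VIM (116, 99 and 140 fragments), CDH2, FN1, CAV1, SPARC and, except in siME2, THY1. CDH5 and KDR, which mark endothelial cells, and COL1A1 had none in any list.

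The promoters shown here are those of MRPL58, among the highest Pol II peaks of the set, which encodes the peptidyl-tRNA hydrolase that frees stalled ribosomes, and of MRPS12, a protein of the decoding centre whose gene shares a promoter with the mitochondrial seryl-tRNA synthetase gene SARS2. They are joined by those of MRPL24, MRPL55 and MRPL1, which had the lowest or highest ratios between libraries. MRPL43, which starts close to the mitochondrial DNA helicase gene TWNK, and MRPL28, the gene that lacked a peak in 1 list, were added after their values had been seen. All were read from the hg19 genome on the strand of the named gene, and each ends 30 bases into the transcript, counting the main start site as base 1. Capitals mark the core ETS letters CCGGAAG, or CTTCCGG where they lie on the other strand as in MRPL28, and in MRPL1 the YY1 letters. The windows are chr17:73008595-73008794 (plus strand), chr19:39421374-39421613 (plus), chr10:102747225-102747329 (minus), chr1:156710851-156711050 (minus), chr1:228296971-228297170 (minus), chr4:78783814-78784013 (plus) and chr16:420509-420708 (minus).
MRPL58: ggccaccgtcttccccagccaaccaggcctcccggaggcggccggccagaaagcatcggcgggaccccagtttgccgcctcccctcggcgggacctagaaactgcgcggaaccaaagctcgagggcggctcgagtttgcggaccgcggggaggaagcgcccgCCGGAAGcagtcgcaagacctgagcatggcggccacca
MRPS12: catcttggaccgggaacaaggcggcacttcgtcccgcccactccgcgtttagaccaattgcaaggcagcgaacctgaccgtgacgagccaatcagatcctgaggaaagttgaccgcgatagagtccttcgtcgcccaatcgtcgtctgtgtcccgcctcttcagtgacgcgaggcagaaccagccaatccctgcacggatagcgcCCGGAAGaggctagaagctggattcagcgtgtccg
MRPL43: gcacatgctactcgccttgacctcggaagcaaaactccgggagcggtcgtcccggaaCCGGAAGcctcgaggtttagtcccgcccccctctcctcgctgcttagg
MRPL24: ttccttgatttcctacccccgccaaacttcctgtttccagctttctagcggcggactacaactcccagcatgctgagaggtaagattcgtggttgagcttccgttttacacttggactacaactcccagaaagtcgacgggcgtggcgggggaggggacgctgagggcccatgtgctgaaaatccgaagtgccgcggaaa
MRPL55: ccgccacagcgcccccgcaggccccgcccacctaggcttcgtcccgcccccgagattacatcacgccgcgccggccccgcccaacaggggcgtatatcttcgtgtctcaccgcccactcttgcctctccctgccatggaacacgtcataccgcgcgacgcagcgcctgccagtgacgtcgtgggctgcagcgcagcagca
MRPL1: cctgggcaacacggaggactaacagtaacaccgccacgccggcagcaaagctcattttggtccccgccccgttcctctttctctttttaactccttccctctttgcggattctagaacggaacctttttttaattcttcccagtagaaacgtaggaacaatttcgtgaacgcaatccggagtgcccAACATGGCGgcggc
MRPL28: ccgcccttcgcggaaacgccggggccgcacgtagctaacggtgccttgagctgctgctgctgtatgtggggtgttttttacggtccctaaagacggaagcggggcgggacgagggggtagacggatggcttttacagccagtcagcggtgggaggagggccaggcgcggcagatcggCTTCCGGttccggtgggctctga

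In these windows the ETS letters began at base -8 from the start site of MRPL58, at -5 in MRPS12, at -18 in MRPL43 and at 8 in MRPL28. MRPL1 held the YY1 letters AACATGGCG at base 17, just inside the transcript. MRPL24 and MRPL55 held none of the 3 sets of letters searched for NRF1, ETS and YY1.

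Over the windows from 250 bases before to 50 after the main start site, ETS and YY1 letters were more frequent in mitochondrial ribosomal protein genes than in promoters at large. CCGGAAG was present on either strand in 32 of 78 windows (41.0%), in 20.1% of all genes with a siCtrl promoter peak and in 14.0% of all protein-coding genes. The YY1 letters AANATGGCG were present in 18 windows (23.1%), against 7.52% of genes with a siCtrl peak and 4.97% of all. The NRF1 letters, GCGCA and GCGC with any base between them, were in 9 windows (11.5%), against 12.3% and 8.37%, so their share was close to that of other occupied promoters. At least 1 of the 3 was found in 51 genes (65.4%), against 34.9% of genes with a siCtrl peak and 24.0% of all. Searched on both strands, GGGCGG (SP/KLF) was in 60.3% of the set and 75.02% of occupied promoters, CCAAT in 28.2% and 35.9%, CACGTG (E-box) in 8.97% and 10.3%, and TATAAA in 5.13% and 4.97%.

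Within the set, most ETS and YY1 letters lay close to the start site. Of 44 ETS sites in the set, 32 began within 60 bases of it, with a median first base at -24. Of 20 YY1 sites, 17 did so, with a median at base 12. Of 10 NRF1 sites, 2 did so, with a median at -113. Places were read only in the set, so whether they differ from those at other promoters was not tested. ETS and YY1 letters can overlap where CCGGAAG runs on into ATGGCG, but none of the 4 genes that held both (MRPL38, MRPL52, MRPS10 and MRPS18A) had overlapping sites. The windows of the set had a median GC content of 59.7%, below the 66.7% of windows with a siCtrl peak and the 63.7% of all. Median siCtrl height was 4.07 fragments per 1000000 filtered tags for genes of the set with ETS letters and 4.73 for those without, whereas over all genes it was 4.61 with them and 4.23 without. Matches are descriptions of the letters, and no factor's binding was measured.

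**Figure D1:**
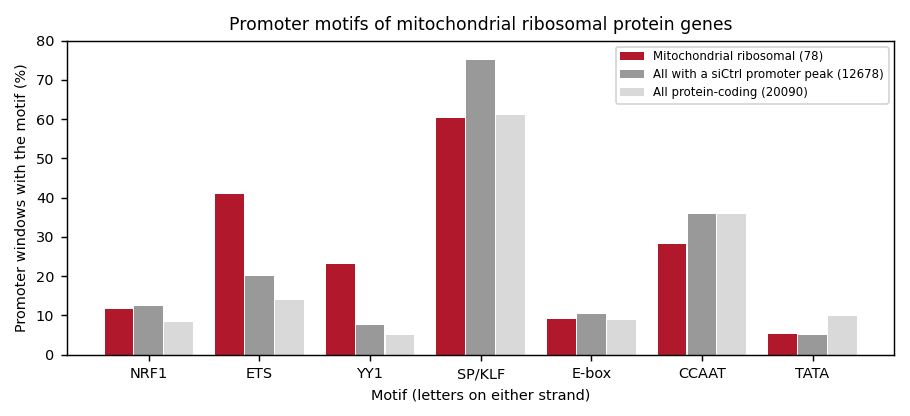
Share of promoter windows (vertical axis, %) holding each set of motif letters on either strand, from 250 bases before to 50 after the main start site, for mitochondrial ribosomal protein genes, all genes with a siCtrl promoter peak and all protein-coding genes. The ETS bars stand at 41.0%, 20.1% and 14.0% and the YY1 bars at 23.1%, 7.52% and 4.97%, while the NRF1 bars of the set and of occupied genes lie close together at 11.5% and 12.3%.

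Nearly every mitochondrial ribosomal protein gene carried Pol II at its promoter in every condition. A peak within 1 kb of a start site was listed for 77 of 78 genes (98.7%) in siME2+αKG, and for all 78 in siME2 and in siCtrl. Over all protein-coding genes, 61.0%, 61.6% and 63.1% had one in the same order. A peak in all 3 lists was found for 77 of the 78 genes (98.7%), against 59.6% of all genes. No gene of the set was without a peak in all 3 lists. The 86 cytosolic ribosomal protein genes had a promoter peak in 97.7% of cases in each list, and the 88 respiratory chain genes in 92.0% to 93.2%.

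The exception was MRPL28 (chr16:416969-421289, minus strand), which encodes a large-subunit protein with a bacterial counterpart. It had no promoter peak in siME2+αKG, a summit of 9 fragments in siME2 and a summit of 10 fragments in siCtrl. The summits in siME2 and siCtrl lay 437 bp apart, in peaks that did not overlap. They gave the lowest promoter heights of the set in both lists, and the lowest summit of any peak was 8 fragments in siME2+αKG, 7 in siME2 and 8 in siCtrl. The genes around it kept their peaks in siME2+αKG. PGAP6 (chr16:420788-437113), whose annotated span overlaps that of MRPL28, had 43 fragments in siME2+αKG, 35 in siME2 and 40 in siCtrl. The siME2 peak of MRPL28 (chr16:420816-421235) lay within the span of both genes, so it cannot be assigned to MRPL28 alone. DECR2, a peroxisomal dienoyl-CoA reductase gene, had 60, 57 and 67 fragments. Why MRPL28 had no peak in siME2+αKG was not tested. Its window shown above holds ETS letters 8 bases into the transcript.

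The 1 gene of 78 without a peak in siME2+αKG is no larger a share than that over all genes. Of all genes with a promoter peak in siME2, 2.83% had none in siME2+αKG, and of those with a peak in siCtrl, 4.22% had none in siME2+αKG. No gene of the set had a peak in siME2+αKG and none in siME2 (background 1.82%), or none in siCtrl (0.938%). None had a peak in siME2 and none in siCtrl (1.33%), nor the reverse (3.61%).

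Promoter height was read at the tallest summit no further than 1 kb from a start site, as ChIP fragments over that base scaled to 1000000 filtered tags. It is read at a single base and not summed over the gene, but a gene with more annotated start sites offers more places for a summit. The median over the set was 4.25 in siME2+αKG (77 genes), 4.31 in siME2 and 4.61 in siCtrl (78 genes each). All protein-coding genes with a summit had medians of 4.01, 4.21 and 4.31. Cytosolic ribosomal protein genes stood higher, with medians of 6.25, 6.27 and 6.57, and respiratory chain genes had 4.01, 4.02 and 4.38.

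Mitochondrial ribosomal protein promoters were therefore almost always occupied but of ordinary height. Of the set, 42 of 77 genes in siME2+αKG, 40 of 78 in siME2 and 44 of 78 in siCtrl lay above the median of all occupied genes. Only 2, 3 and 2 lay above the 90th percentile, and 0, 1 and 1 below the 10th, the gene being MRPL28 in siME2 and in siCtrl. The lower and upper quartiles of the set were 3.40 and 5.02 in siME2+αKG, 3.26 and 5.43 in siME2, and 3.44 and 5.69 in siCtrl.

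**Figure D2:**
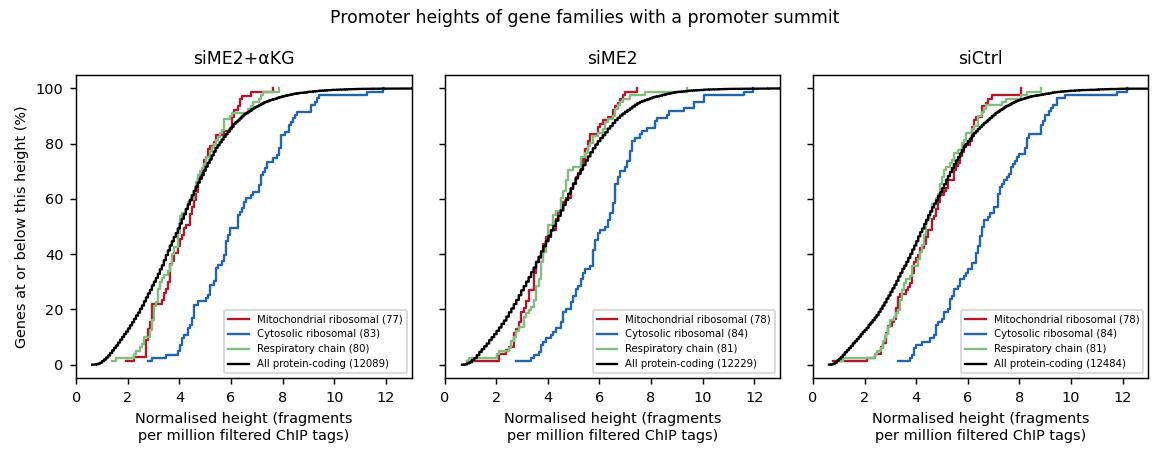
Cumulative share of genes (vertical axis, %) at or below each normalised promoter height (horizontal axis, fragments per 1000000 filtered ChIP tags) in each library, for 4 families of genes with a promoter summit, with the number of genes in each legend. The curve of mitochondrial ribosomal protein genes rises more steeply than that of all genes around a similar middle (medians 4.25, 4.31 and 4.61 against 4.01, 4.21 and 4.31) and lies left of the cytosolic ribosomal curve.

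By subunit, large-subunit genes had median heights of 4.13 in siME2+αKG, 3.93 in siME2 and 4.46 in siCtrl, and small-subunit genes 4.48, 4.64 and 4.73. Genes with a bacterial counterpart had medians of 4.09, 4.02 and 4.23, and mitochondria-specific ones 4.55, 4.50 and 4.84. Each of these differences was small beside the spread within a group, where siCtrl heights ran from 0.769 to 8.07 for the large subunit and from 2.08 to 8.07 for the small one.

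The highest promoters of the set in siCtrl were those of MRPS18B and MRPL10. MRPS18B (chr6:30585617-30594172, plus strand), 1 of 3 relatives of bacterial ribosomal protein S18, had 99 fragments in siME2+αKG, 68 in siME2 and 105 in siCtrl, which are heights of 7.64, 6.51 and 8.07. Its summit lay at -774, -794 and -780 bp from its own main start site, negative being before it, and nearer that of PPP1R10, a phosphatase-1 regulator gene transcribed the other way, so that its height cannot be told apart from that of the neighbour. MRPL10, the anchor of the ribosomal stalk, had 88, 68 and 105 fragments, or heights of 6.79, 6.51 and 8.07, with its summit 105, 143 and 83 bp into the transcript.

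MRPS7, a small-subunit head protein, had 83 fragments in siME2+αKG, 78 in siME2 and 90 in siCtrl, heights of 6.41, 7.47 and 6.92. MRPL40 had heights of 6.10, 6.13 and 6.77, MRPL58 of 5.40, 6.99 and 6.69, and MRPL41 of 6.25, 6.89 and 6.54. MRPS35 and MRPS27, small-subunit proteins found only in mitochondria, tied with MRPL41 at 85 fragments in siCtrl. The order of these genes differed between libraries, and MRPS7 was the highest of the set in siME2.

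At the other end, MRPS31, a mitochondria-specific small-subunit protein, had 25 fragments in siME2+αKG, 25 in siME2 and 27 in siCtrl, heights of 1.93, 2.39 and 2.08. MRPL13 had 3.40, 2.68 and 2.38, MRPL52 had 2.24, 3.06 and 2.61, MRPL20 had 2.93, 2.87 and 2.61, and MRPL47 had 3.40, 2.87 and 2.69. These genes encode large-subunit proteins, of which MRPL52 alone lacks a bacterial counterpart. MRPL46 and MRPS11 start 320 bp apart on opposite strands and share a single summit, with 38 fragments in siME2+αKG, 22 in siME2 and 37 in siCtrl. MRPL23 equalled them in siCtrl with 37 fragments, and had 35 in siME2+αKG and 34 in siME2. None of these genes exceeded 3.40 in any library.

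**Figure D3:**
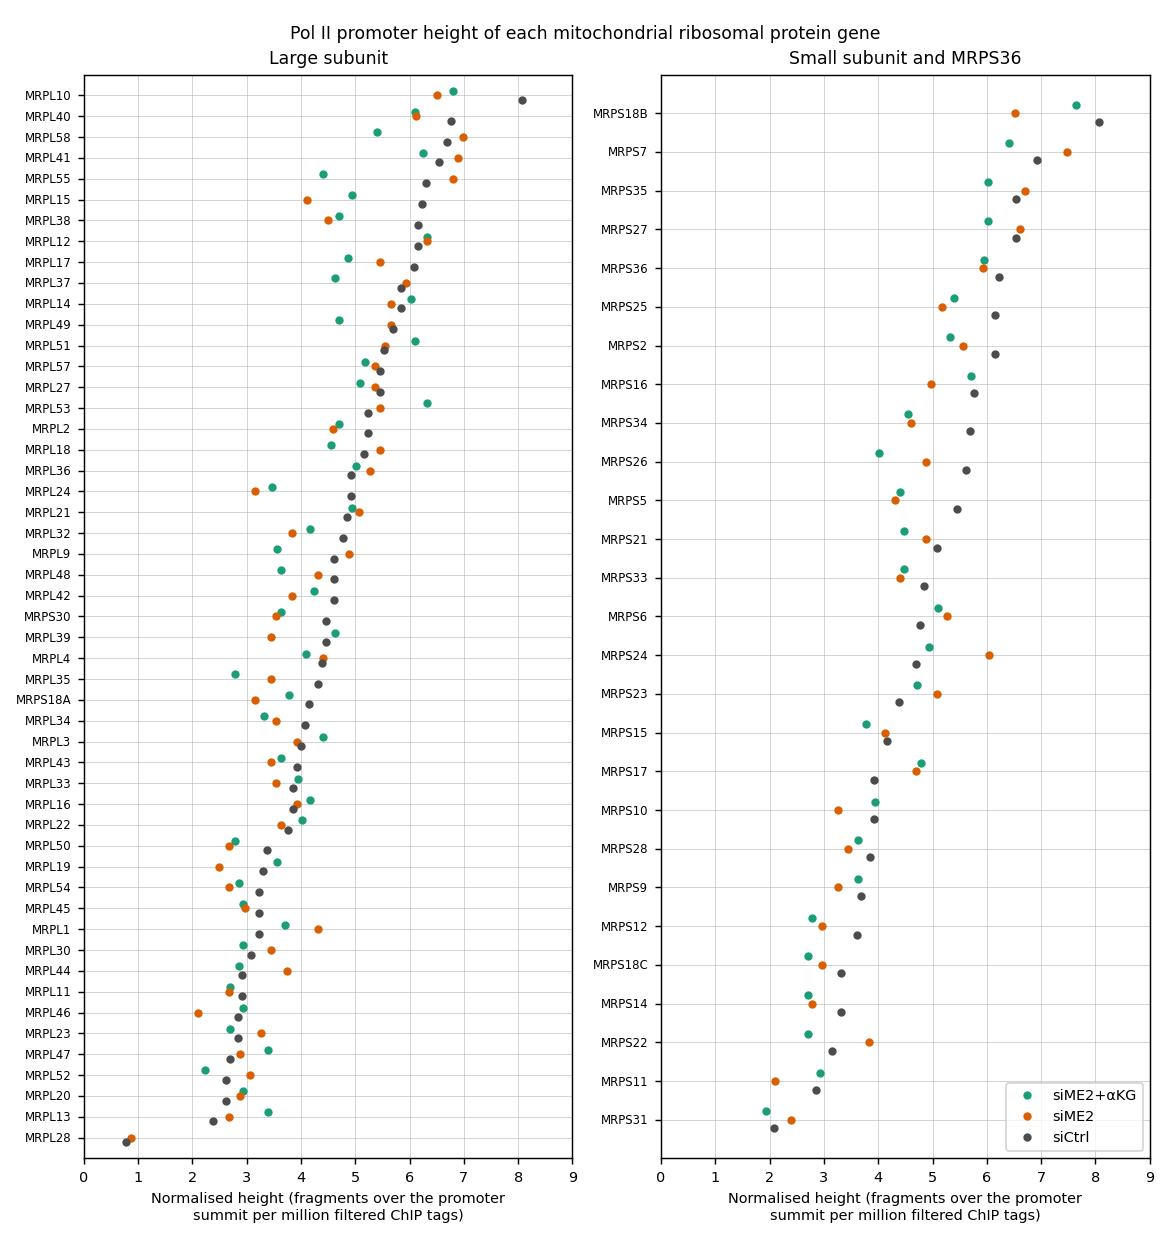
Normalised Pol II promoter height (horizontal axis, fragments over the summit per 1000000 filtered ChIP tags) of each gene in each of the 3 libraries, ordered by siCtrl height, with large-subunit genes on the left and small-subunit genes with MRPS36 on the right. Points of 1 gene lie close together beside the range of the set, which in siCtrl runs from 0.769 for MRPL28 to 8.07 for MRPL10 and MRPS18B.

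Genes with well-known roles spanned this range. MRPL12, the stalk protein, which has also been reported to bind mitochondrial RNA polymerase, had heights of 6.33 in siME2+αKG, 6.32 in siME2 and 6.15 in siCtrl. MRPL11, at the base of the stalk, was lower with 2.70, 2.68 and 2.92. MRPL3, a core protein of the large subunit, had 4.40, 3.93 and 4.0, and MRPL44 had 2.86, 3.73 and 2.92. MRPS30, the large-subunit protein with a small-subunit symbol, had 3.63, 3.54 and 4.46.

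In the small subunit, MRPS2 had 5.33 in siME2+αKG, 5.55 in siME2 and 6.15 in siCtrl, and MRPS16 had 5.71, 4.98 and 5.77. MRPS34 had 4.55, 4.60 and 5.69, MRPS22 had 2.70, 3.83 and 3.15, and MRPS12 had 2.78, 2.97 and 3.61. Inherited defects of MRPS2, MRPS16, MRPS22 and MRPS34 are known to impair mitochondrial translation in people. Of the relatives of bacterial S18, MRPS18A had heights of 3.78, 3.16 and 4.15 and MRPS18C had 2.70, 2.97 and 3.31. Both stood below the summit read for MRPS18B in each library. That summit lay nearer the start of PPP1R10, and that of MRPS18C nearer the start of HELQ on the other strand. These heights therefore do not rank the genes themselves. MRPS36, the non-ribosomal gene, had 5.94, 5.94 and 6.23.

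The siME2 and siCtrl libraries differed little at these promoters. The median log2 ratio of height, siME2 over siCtrl, was -0.06 over 78 genes and -0.04 over all 11991 promoters with a summit in both. It was below 0 for 47 genes and above 0 for 31 (60.3% lower, against 56.5% of all promoters). The 95% counting interval of the ratio lay below 0 for 2 of 78 genes (background 1.56% of all promoters) and above 0 for none (background 0.625%). The intervals reached a median of 0.59 log2 units to either side, and less at taller promoters.

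The 2 genes were MRPL24 and MRPL15, which encode large-subunit proteins with bacterial counterparts. MRPL24 (chr1:156707095-156711382, minus strand) had 33 fragments in siME2 and 64 in siCtrl, a log2 ratio of -0.64 (interval -1.29 to -0.01). MRPL15 (chr8:55047801-55061074, plus strand) had 43 fragments in siME2 and 81 in siCtrl, a log2 ratio of -0.60 (interval -1.17 to -0.05). In siME2+αKG MRPL24 had 45 fragments and MRPL15 had 64, heights of 3.47 and 4.94, which lay between those of the other libraries for both. Heights in siME2 were 3.16 and 4.12, and in siCtrl 4.92 and 6.23. Both genes were picked for their low ratio of siME2 over siCtrl, a choice that by itself makes such a middle place more likely. When heights were also divided by fragment length, neither interval lay off 0, and relative to the median of all promoters only that of MRPL15 did.

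Next lowest were MRPL38 (log2 ratio -0.45, 47 fragments in siME2 and 80 in siCtrl), the shared MRPL46 and MRPS11 summit (-0.43) and MRPL19 (-0.41). For MRPL38 the summit lay at -436 bp from the main start site in siME2 and at 67 bp in siCtrl, so different summits were compared. The highest ratios were MRPL1 at 0.42, with 45 fragments in siME2 and 42 in siCtrl, MRPS24 at 0.36, MRPL44 at 0.35, MRPS22 at 0.28 and MRPS17 at 0.26. All of these intervals included 0. MRPL1 and MRPS24 encode counterparts of bacterial proteins of the large and small subunit, while MRPL44 and MRPS22 encode mitochondria-specific ones. By subunit, the median log2 ratio was -0.03 for the large and -0.15 for the small subunit, with quartiles of -0.27 and 0.08 for the large and -0.25 and 0.09 for the small.

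With αKG added to siME2 cells, the set again stayed close to its level in siME2 cells. The median log2 ratio, siME2+αKG over siME2, was -0.01 over 77 genes, against -0.08 over 11820 promoters, and 39 genes were lower and 38 higher (50.6% lower, against 63.2% of all). The interval lay below 0 for 1 gene (background 2.71%) and above 0 for none (background 0.499%). That gene was MRPL55 (chr1:228294380-228297013, minus strand), a large-subunit protein gene, with 57 fragments in siME2+αKG and 71 in siME2. Its log2 ratio was -0.63 (interval -1.16 to -0.10). The summit of MRPL55 lay at -288, -267 and -322 bp from its main start site in siME2+αKG, siME2 and siCtrl.

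After MRPL55, the lowest ratios were those of MRPS22 (-0.50), MRPL9 (-0.46), MRPL52 (-0.45) and MRPL44 (-0.39). The highest were MRPL19 at 0.51, with 46 fragments in siME2+αKG and 26 in siME2, MRPL46 and MRPS11 at 0.48, MRPL39 at 0.43, MRPL13 at 0.34 and MRPS10 at 0.27, and all of these intervals included 0. MRPL39, MRPL46 and MRPL44 are mitochondria-specific proteins of the large subunit. MRPL19, MRPL44, MRPL46, MRPS11 and MRPS22 are named in both this comparison and the one before, and both use the same siME2 library. The median was 0.02 for the large subunit and -0.05 for the small subunit.

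Against siCtrl, siME2+αKG heights were somewhat lower in the set, to the same degree as elsewhere. The median log2 ratio was -0.11 over 77 genes and -0.13 over 11896 promoters, with 54 genes lower and 23 higher (70.1% lower in the set and in all promoters alike). The interval lay below 0 for 2 genes (background 3.09%) and above 0 for none (background 0.193%). They were MRPL35 (chr2:86426478-86440913, plus strand), with 36 fragments in siME2+αKG and 56 in siCtrl and a log2 ratio of -0.63 (interval -1.28 to -0.0022), and MRPL55, with 57 and 82 fragments and a log2 ratio of -0.52 (interval -1.03 to -0.01). Both encode large-subunit proteins with bacterial counterparts. Relative to the median of all promoters, 0 genes had an interval off 0. MRPL24 (-0.50), MRPS26 (-0.48) and MRPL38 (-0.39) followed. The highest were MRPL13 at 0.51, MRPL47 at 0.34, MRPS17 at 0.29, MRPL53 at 0.28 and MRPL1 at 0.20, with intervals that included 0.

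**Figure D4:**
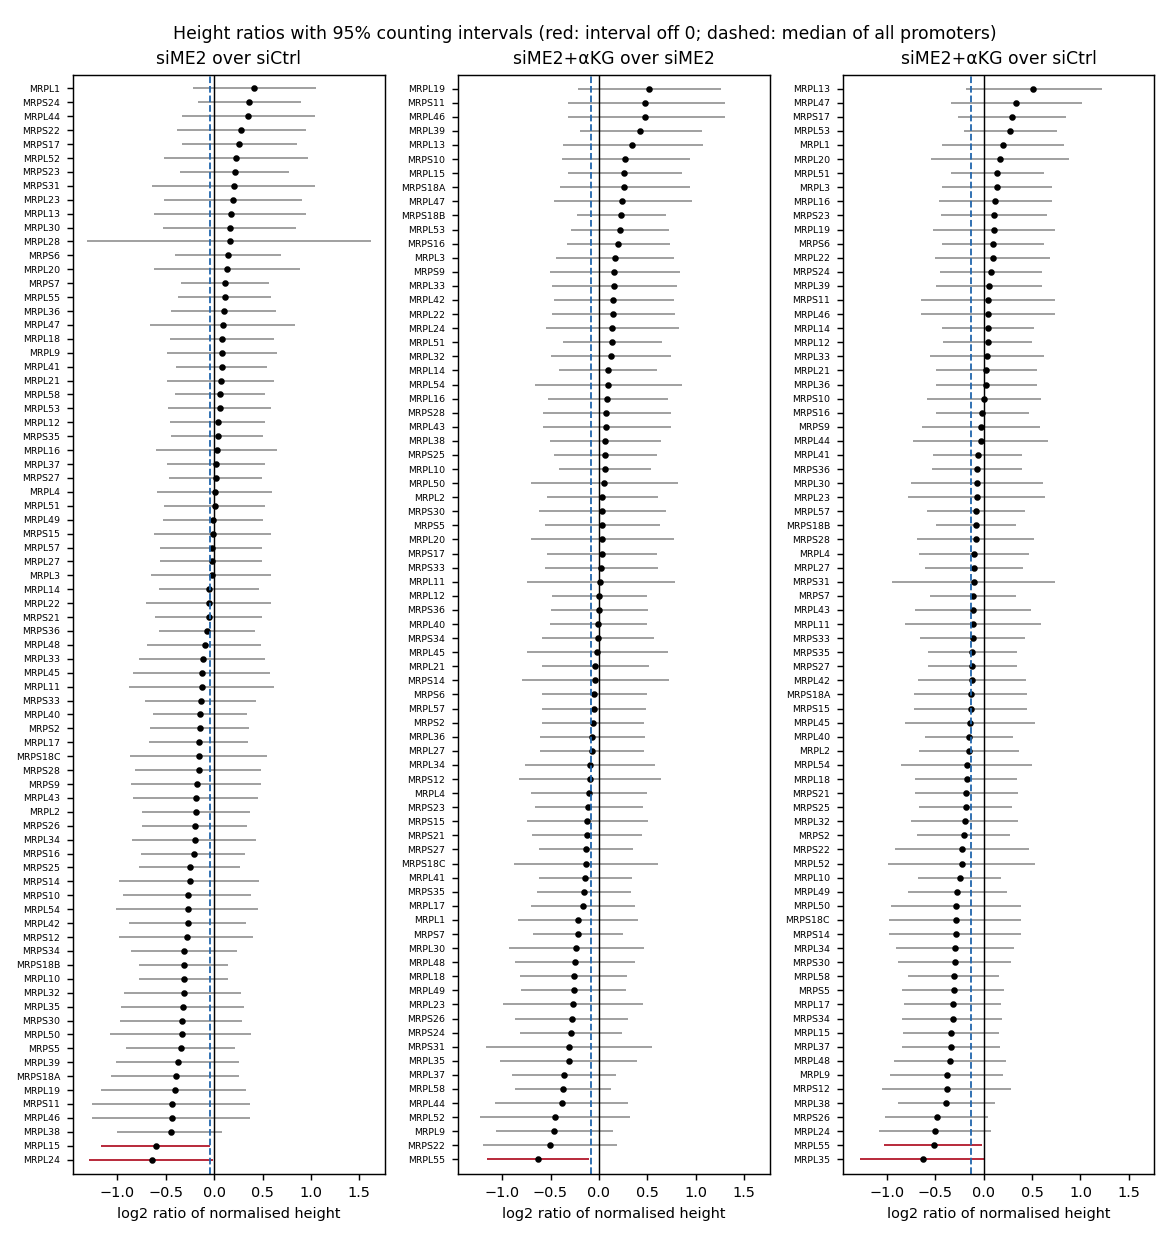
Log2 ratio of normalised promoter height (horizontal axis) for each gene in the 3 comparisons, ordered within each panel, with points for the ratio and lines for the 95% counting interval. Red intervals lie off 0 (MRPL24 and MRPL15 for siME2 over siCtrl, MRPL55 for siME2+αKG over siME2, MRPL35 and MRPL55 for siME2+αKG over siCtrl), and the dashed lines mark the medians of all promoters at -0.04, -0.08 and -0.13.

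Over the 3 libraries, 73 of the 77 genes with a summit in each stayed within 1.5-fold from the lowest to the highest height (94.8%, against 88.7% of all promoters). The median of that ratio was 1.21 in the set and 1.23 over all promoters, and the largest in the set was 1.56. Measured from the median of all promoters, the median of the set was -0.02 for siME2 over siCtrl, 0.07 for siME2+αKG over siME2 and 0.02 for siME2+αKG over siCtrl. On that scale 1, 1 and 0 genes had an interval off 0, all of them lower. Over all promoters, it lay lower for 138 of 11991, 154 of 11820 and 110 of 11896. The commonest order was siME2 lowest, siME2+αKG in the middle and siCtrl highest, seen in 21 genes (27.3%, against 19.2% of all promoters). The order siME2+αKG lowest and siCtrl highest came next with 17 genes (22.1%, against 27.3%). How far the order reflects counting error or library differences was not tested.

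Pol II summits in the set lay just inside the transcribed region. The median summit was 140 bp after the main start site in siME2+αKG, 117.5 bp in siME2 and 101.5 bp in siCtrl, and 133, 121 and 108 bp over all genes. The order of the libraries was thus the same for all genes, and fragment length also differed between them, whose part in the summit position was not tested. In the set 87.0%, 84.6% and 87.2% of summits lay within 300 bp of the main start site, against 71.4%, 71.4% and 72.7% over all genes, and 84.4%, 78.2% and 82.1% lay downstream of it, against 70.6%, 70.2% and 70.7%.

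**Figure D5:**
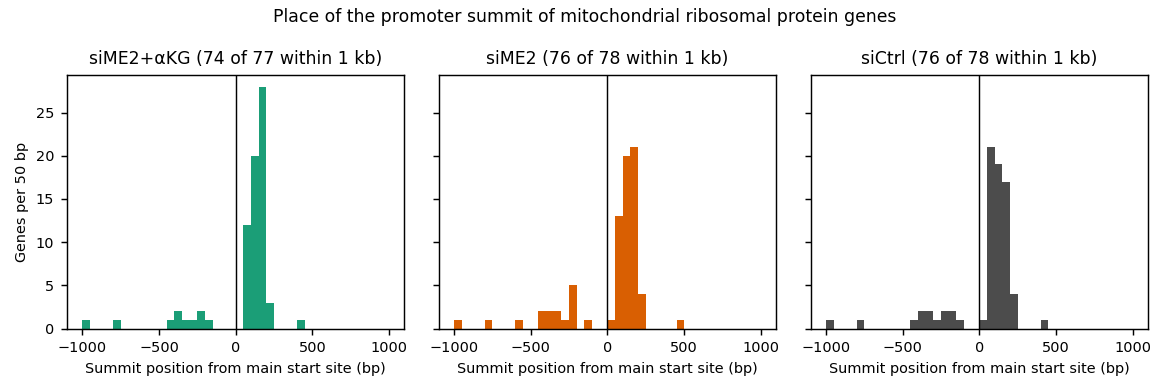
Number of mitochondrial ribosomal protein genes (vertical axis) by the distance of the promoter summit from the main start site (horizontal axis, bp, positive inside the transcript, bins of 50 bp), in siME2+αKG, siME2 and siCtrl. Most summits form a narrow group after the start site, with medians of 140, 117.5 and 101.5 bp, and 74 of 77, 76 of 78 and 76 of 78 summits fall within the 1 kb shown.

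A few genes had their highest summit elsewhere. MRPS27 carried it at an internal start site 12026 bp into the gene in siME2+αKG and in siCtrl and 12030 bp in siME2. MRPL36 had it at -1736, -1704 and -1733 bp from the main start site, and MRPL18 had it at -969, -951 and -953 bp, nearer the start of TCP1, a chaperonin subunit gene on the other strand. In MRPL34 the highest summit lay at an upstream start site, -2650 bp from the main one, in siME2+αKG but 142 and 201 bp after it in siME2 and siCtrl. ABHD8 starts within 1 kb of a start site of MRPL34, and NDUFS6 within 1 kb of one of MRPL36. To which gene these summits belong was not tested. Where a promoter held 2 or more summits, the lists split it differently. At MRPS18B, siCtrl listed 1 peak of 10346 bp over both start sites, whereas a separate peak near the start of MRPS18B itself had 39 fragments in siME2+αKG and 32 in siME2. At MRPS18C a separate peak near its own start had 30 and 19 fragments, and at MRPL18 27 and 27, again with none apart in siCtrl. Heights near those starts can therefore not be compared with siCtrl. Over the whole set, 70 genes had summits within 300 bp of each other in the 3 libraries.

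Many of these genes share their promoter with a neighbour. A protein-coding gene on the other strand started upstream within 1 kb of 26 of the 78 main start sites (33.3%), against 9.38% of all protein-coding genes, 14.4% of genes with a siCtrl summit and 16.3% of cytosolic ribosomal protein genes. There were 28 such pairs, with a median distance of 192 bp, and 20 lay within 300 bp. These numbers count MRPL46 and MRPS11 from each side, and MRPL32 and MRPL47 with each of their partners. The closest were MRPL27 with EME1, a DNA endonuclease subunit gene, at 45 bp, MRPL43 with TWNK at 46 bp and MRPL21 with IGHMBP2 at 59 bp. Several partners also serve mitochondria or protein synthesis. MRPS12 lies 181 bp from SARS2, MRPL47 lies 156 bp from NDUFB5, a complex I subunit gene, MRPL49 lies 187 bp from FAU, which encodes a cytosolic ribosomal protein, and MRPL46 lies 320 bp from MRPS11. At other pairs the partner works elsewhere, as with PSMA2, a proteasome subunit gene 202 bp from MRPL32, and SKA3, a spindle gene 106 bp from MRPL57.

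In 27 pairs the summit lay within 1 kb of either start, the exception being MRPS27. It lay nearer the mitochondrial ribosomal start site in 21 of the 27 in siME2+αKG, 20 in siME2 and 20 in siCtrl, counting the MRPL46 and MRPS11 pair from each side. Summits were taken from windows around the start sites of the mitochondrial ribosomal gene, which favours that gene. It lay nearer the partner in all 3 libraries for MRPL47, MRPL18, MRPS11, MRPS18B and MRPS18C. In such pairs a peak height belongs to both genes, and Pol II moving in either direction cannot be told apart. In all, 36 genes of the set (46.2%, against 23.4% of all genes) had a start site of another coding gene within 1 kb of one of their own.

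Promoter peaks of the set were of ordinary width. Their median length was 1079 bp in siME2+αKG, 901 bp in siME2 and 1106.5 bp in siCtrl, against 1061, 1004 and 1184 bp over all genes. MRPS18B had the widest, with 5242 bp in siME2+αKG, 3765 bp in siME2 and 10346 bp in siCtrl. MRPL12 had 3324, 3332 and 3868 bp and MRPL53 had 4361, 2356 and 2540 bp. The whole of MRPL53 (706 bp) and of MRPL41 (677 bp) lay under the peak in every list, and the whole of MRPS34 (1261 bp) in siME2+αKG. The authors' fold enrichment over input, a value of each peak, had medians of 17.6, 19.7 and 19.8 in the set and 18.0, 19.2 and 20.1 over all genes.

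Away from start sites Pol II peaks were fewer and lower. There were 36 such peaks over 19 genes in siME2+αKG, 29 over 17 genes in siME2 and 37 over 19 genes in siCtrl, with medians of 17.5, 13 and 15 fragments. The same 13 genes had at least 1 in every list, among them MRPL33, whose annotated span is 216371 bp, MRPL20, MRPL23, MRPS7 and MRPS22. The share of all genes with such peaks is not given here, so these counts are descriptions of the set only. The summit lay within 1 kb of a start site of another coding gene for 5 of the 36 peaks in siME2+αKG, 5 of 29 in siME2 and 6 of 37 in siCtrl. Their medians were 48, 34 and 42.5 fragments, against 16, 12 and 13 for the others. The 2 kinds overlapped, since peaks of MRPL43 beside SEMA4G had 10 and 14 fragments in siME2 and 16 in siCtrl, and a peak of MRPS2 away from other starts had 42 in siME2+αKG. At MRPL33 the tallest had 48, 46 and 63 fragments and lay beside the starts of BABAM2 and RBKS, which fall inside the annotated span of MRPL33. At MRPS18B it had 62, 56 and 67 fragments and lay beside ATAT1, a tubulin acetyltransferase gene, and a peak of 115 fragments overlapping the end of MRPL2 in siME2+αKG had its summit beside the start of CUL7. In siCtrl a wider peak of 111 fragments there reached a start site window of MRPL2 and was counted as a promoter peak.

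Genes for proteins and enzymes that work with the mitochondrial ribosome were also mostly occupied. The 5 ribosomal proteins with other symbols (DAP3, PTCD3, CHCHD1, AURKAIP1 and GADD45GIP1) all had peaks in every list, with median heights of 5.25 in siME2+αKG, 5.74 in siME2 and 6.0 in siCtrl. All 28 assembly and RNA modification factors had them as well, with medians of 4.40, 4.69 and 4.84. Among these, NSUN4, a ribosomal RNA methyltransferase gene, had 84 fragments in siME2+αKG, 49 in siME2 and 90 in siCtrl. Its log2 ratio, siME2 over siCtrl, was -0.56 (interval -1.09 to -0.04), the only one of the 28 with an interval off 0 in that comparison (background 1.56% below 0).

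All 17 genes of mitochondrial DNA replication and of RNA synthesis, processing or turnover had peaks in each list. TFB2M, the initiation factor of mitochondrial RNA polymerase, had 48 fragments in siME2+αKG, 53 in siME2 and 72 in siCtrl, with a log2 ratio of -0.58 (interval -1.14 to -0.03) for siME2+αKG over siCtrl. It was the 1 gene of 17 with an interval below 0 in that comparison (background 3.09%). Relative to the median of all promoters, 0 of the 17 had an interval below it. The 17 translation factor genes had medians of 4.63, 5.12 and 5.15. Of these, MTRF1, a release factor gene, had no peak in siME2, with 18 fragments in siME2+αKG and 12 in siCtrl. Over all genes with a siCtrl peak, 3.61% had none in siME2, and over those with a siME2+αKG peak 1.82%. Among 11 known regulators of such promoters, PPARGC1A had no promoter peak in any list. NRF1 had 90 fragments in siME2+αKG, 68 in siME2 and 108 in siCtrl, GABPA had 61, 45 and 64, and YY1 had 67, 56 and 70. None of the regulators had an interval off 0 in any comparison.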

How the data were processed

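Chromatin of SK-Hep1 cells was precipitated for Pol II and reads were placed on hg19, per the labels' protocols. Alignment with Bowtie2 2.3.5.1 and peak calling with MACS2 2.2.6 are given per the submitters' processing notes, but the headers of the lists give MACS 2.2.7.1. A list rests on 1 ChIP library and its own input, with a p-value limit of 1e-05 and 1 tag kept per position, per the file headers. The deposited pileup is a signal, the fragments over a summit, and the deposited fold enrichment is a ratio to local input background. The deposited −log10 q was used only for 1 alternative.

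The authors' siME2+αKG pileup had been scaled by 0.900, per the file headers' tag totals, and was divided by that factor, which gave values within 0.0055 of whole fragments. Gene models were GENCODE release 44 lifted to GRCh37. The main start site is that of the representative transcript. Heights were compared as log2 ratios with exact conditional binomial (Clopper-Pearson) 95% intervals, which cover counting error only. The interval calculation was tested only on simulated counts with counting error alone. Differences between libraries and the choice of a summit were not simulated. With 1 library per condition there was no test and no p-value between conditions.

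Genes were named if a promoter peak was missing, if they were the 6 highest or lowest in siCtrl, the 5 highest or lowest ratios of a comparison or had an interval off 0, for peak width or place, or for their role. Members, lists and this rule were chosen with earlier results of these data known. Regulators NRF1, GABPA and YY1, the neighbours of MRPL28 and the partners of divergent pairs were named outside the rule. Sequences were read with pysam 0.24.0 from GRCh37. Alternatives covered the window, peak threshold, summit choice, scaling and shared promoters.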

Additional observations from a re-analysis of the deposited data

How the results depend on the processing

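Across 21 results and 150 alternative values, 128 kept their direction and stayed within the limits set for a change, 17 moved and 5 reversed in sign. With only the 42 genes that had no other coding start site within 1 kb, promoter peaks were listed for 41 in siME2+αKG, 42 in siME2 and 42 in siCtrl, the lower counts following from fewer genes. Median log2 ratios near 0 changed sign. For siME2 over siCtrl the median was 0.0076 when heights were also divided by fragment length. For siME2+αKG over siME2 it was 0.024 over unshared promoters, 0.0022 with the summit nearest the main start site, 0.075 relative to all promoters and -0.14 with fragment length. For siME2+αKG over siCtrl it was -0.18 with fragment length and 0.016 relative to all promoters. The cause was not tested beyond the arithmetic of each scaling.

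Counts of genes with an interval off 0 depended on these choices. Apart from those relative to all promoters, the counts below have no share over all promoters under the same choice beside them. They can therefore not be called high or low. For siME2 over siCtrl, lower genes numbered 1 with local background subtracted (MRPL15), 0 with fragment length, 5 with the summit nearest the main start site (adding MRPS18B, MRPS18C and MRPL18, whose neighbouring summits siCtrl lists as a single peak) and 1 relative to all promoters (MRPL15). For siME2+αKG over siME2 they numbered 2 with fragment length (MRPL55 and MRPL58), and 1 gene, MRPL2, was higher with a window of 2 kb (log2 ratio 0.95). With that window MRPL2 was also lower for siME2 over siCtrl (-0.89), both ratios using the same siME2 list. For siME2+αKG over siCtrl they numbered 4 with the nearest summit (adding MRPS18B and MRPL18) and 0 relative to all promoters. MRPL55 remained below 0 for siME2+αKG over siME2 under every alternative tried. A stricter rule counted a peak as missing unless the other list covered at least 50% of it. Then 1 gene was listed in siME2 and not siCtrl, and 3 in siCtrl and not siME2. A further 2 were listed in siME2+αKG and not siME2, and 2 in siCtrl and not siME2+αKG. The share over all genes under this rule is not given here, so these counts cannot be called high or low. Keeping only genes whose 3 summits lay within 300 bp of each other, a choice made after seeing the data, changed no count of intervals off 0. No paired analysis was possible because each condition had 1 ChIP library, although siCtrl and siME2 carry the same replicate number. The siME2 library, the shallowest, limits what can be seen at a single gene.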
